A study of Mus musculus with 12 samples.

Results

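The genes described here are the 32 enzymes and transporters that carry glucose to lactate and out of the cell, taken by symbol from a table of read counts for 39017 mouse genes. They comprise 4 hexokinases, the ADP-dependent kinase *Adpgk*, the isomerases, kinases, mutases, enolases and dehydrogenases of the later steps, 4 enzymes that make or remove fructose-2,6-bisphosphate, 3 genes of lactate export and a glucose-6-phosphatase. All 32 were found and all 32 passed the filter on low counts that left 16527 genes to test.

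Glycolysis splits glucose into pyruvate in the cytosol, and lactate dehydrogenase then reduces pyruvate to lactate, which leaves the cell through monocarboxylate transporters. Many steps are served by several isozymes that differ in affinity, regulation and tissue, and tumors often use the forms with high capacity even when oxygen is present. Several of these genes are known targets of the hypoxia-inducible factors HIF-1 and HIF-2, whose binding element has the core ACGTG or GCGTG. In healthy lung, alveolar type 2 cells, from which adenocarcinomas of this kind can arise, also make and release lactate.

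RNA was sequenced from the CD45-negative fraction of 12 lung tumors of C57BL/6 mice, apparently 9 of them, in 4 groups of 3 tumors each. All mice carried floxed p53 alleles (p53 Fl/Fl), a further Cre-dependent allele and the CCSP-rtTA transgene, in which the promoter of club cell secretory protein drives the doxycycline-dependent activator. KP mice are labelled wild-type for *Slc2a1*, the gene of the glucose transporter Glut1, although the methods allow heterozygous mice among the controls of the study, and KPG1 mice carried floxed alleles of it (Glut1 Fl/Fl). All mice were instilled with 6000 viral units of the same lentivirus, Lenti.TRE-PPARaD13_PGK-Cre. It holds Cre and, under a doxycycline-responsive promoter, PPARαΔ13, a dominant-negative form of mouse PPARα. Mice of the groups labelled KP-PPARαΔ13 and KPG1-PPARαΔ13 were fed doxycycline at 625 mg per kg of diet for 15 days and those of the groups labelled KP and KPG1 a regular diet, and tumors were taken 26 weeks after initiation. The diet itself and the induction of PPARαΔ13 therefore cannot be told apart. If the first number in the description is that of the mouse, 3 pairs of tumors shared one (KP 1 and 2, KPG1 1 and 2, KPG1-PPARαΔ13 1 and 3), and p-values partly measure spread within a mouse. Sex was unbalanced, with only females in KP, only males in KPG1, 1 female among the 3 tumors of KP-PPARαΔ13 and 2 females among the 3 of KPG1-PPARαΔ13.

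Total counts per tumor ranged from 25263794 to 32654223. Between tumors, counts are given as CPM (the count relative to the TMM-scaled total), and between genes as TPM, which also divides by transcript length. *Slc2a1*, the gene targeted in KPG1, had 41.7, 35.3 and 57.7 CPM in KP, 152, 115 and 108 in KP-PPARαΔ13, 30.2, 64 and 39.9 in KPG1 and 23.7, 53.2 and 54.5 in KPG1-PPARαΔ13, so the tumors labelled KPG1 were not lower than those labelled KP. Reads outside the deleted part of a gene say nothing of its loss, and reads of the floxed part were not counted apart. *Ppara*, whose mouse sequence the construct shares, had 15.7, 10.5 and 9.54 CPM in KP, 2.71, 64.6 and 246 in KP-PPARαΔ13, 7.24, 10.5 and 15.3 in KPG1 and 8.9, 19.2 and 17.7 in KPG1-PPARαΔ13. It stood above every tumor on the regular diet in KP-PPARαΔ13 tumors 2 and 3 and, by a smaller margin, in KPG1-PPARαΔ13 tumors 2 and 3. It did not in KPG1-PPARαΔ13 tumor 1 or in KP-PPARαΔ13 tumor 1, the lowest of the 12. The tissue label was borne out by the 7 alveolar type 2 markers, which summed to between 21340 and 67480 CPM, against 34.2 to 377 CPM for the 4 club cell markers. *Ptprc*, the gene of CD45, was low but present (1.88 to 31.5 CPM). The 8 leukocyte markers summed to 735 to 2910 CPM in KP, 389 to 4285 in KP-PPARαΔ13, 469 to 2090 in KPG1 and 202 to 1992 in KPG1-PPARαΔ13, most of it *Lyz2*, which alveolar type 2 cells also express. In bulk samples, fewer cells of a type and less RNA per cell cannot be told apart.

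Promoter sequences, from RefSeq on GRCm38.p6, cover 250 bases before and 50 bases after a transcription start and were listed for 31 of the 32 genes. The core ACGTG or GCGTG, read on both strands, was present in 22 of these 31 promoters (71%, taking for each gene the entry nearest to its principal transcript), against 43.8% of all 32851 promoter entries. ACGTG alone was present in 45.2% (19.6% of all entries) and GCGTG alone in 51.6% (32.4% of all). No match was found in the windows of *Bpgm*, *Eno2*, *Gpi1*, *Hk1*, *Pfkfb1*, *Pgam2*, *Pklr*, *Pkm* and *Tpi1*. For *Pkm*, *Bpgm* and *Tpi1* the listed start lay 208, 149 and 138 bases from that of the principal transcript. Their windows cover fewer than 250 bases before the principal start, so a match further upstream would be missed. The promoters of 5 genes are shown, chosen after the expression values were seen, for a lactate dehydrogenase, a mutase, a transporter and a pyruvate kinase whose means were higher in KP-PPARαΔ13 than in KP, the last of them without a match, and for *Adpgk*, whose mean was higher with doxycycline in KPG1. Capitals mark the matches to ACGTG and GCGTG, which read CACGT and CACGC where they lie on the other strand. CACGTG, which contains ACGTG on both strands, was present in 19.4% of the promoters of these genes and 7.15% of all entries. The *Ldha* promoter (chr7:46845554-46845853, plus strand) holds 2 copies of CACGTG, and so 5 matches to ACGTG, with 2 to GCGTG. That of *Slc16a3* (chr11:120948817-120949116, plus strand) holds 2 matches to ACGTG, that of *Pgam1* (chr19:41911621-41911920, plus strand) 1 to ACGTG and 2 to GCGTG, and that of *Adpgk* (chr9:59291322-59291621, plus strand) 1 of each. The displaced *Pkm* window (chr9:59656326-59656625, plus strand) holds neither. A match describes letters only, and binding was not measured.
Ldha: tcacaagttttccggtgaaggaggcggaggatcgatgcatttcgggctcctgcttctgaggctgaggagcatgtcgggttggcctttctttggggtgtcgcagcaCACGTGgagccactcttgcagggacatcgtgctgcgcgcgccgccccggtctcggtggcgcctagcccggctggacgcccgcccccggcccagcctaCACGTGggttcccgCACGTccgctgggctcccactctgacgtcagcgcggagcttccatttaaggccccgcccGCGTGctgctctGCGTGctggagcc
Slc16a3: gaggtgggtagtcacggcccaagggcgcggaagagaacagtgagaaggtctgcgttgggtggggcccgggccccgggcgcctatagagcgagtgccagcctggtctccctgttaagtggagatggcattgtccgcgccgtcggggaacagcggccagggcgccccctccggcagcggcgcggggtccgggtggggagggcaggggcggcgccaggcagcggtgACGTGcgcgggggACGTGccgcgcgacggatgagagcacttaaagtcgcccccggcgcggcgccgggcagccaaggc
Pgam1: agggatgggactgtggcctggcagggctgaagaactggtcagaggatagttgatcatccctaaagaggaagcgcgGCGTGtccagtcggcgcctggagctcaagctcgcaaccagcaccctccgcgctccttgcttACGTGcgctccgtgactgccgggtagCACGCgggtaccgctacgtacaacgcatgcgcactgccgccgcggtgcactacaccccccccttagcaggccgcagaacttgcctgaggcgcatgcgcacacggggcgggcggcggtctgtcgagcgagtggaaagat
Adpgk: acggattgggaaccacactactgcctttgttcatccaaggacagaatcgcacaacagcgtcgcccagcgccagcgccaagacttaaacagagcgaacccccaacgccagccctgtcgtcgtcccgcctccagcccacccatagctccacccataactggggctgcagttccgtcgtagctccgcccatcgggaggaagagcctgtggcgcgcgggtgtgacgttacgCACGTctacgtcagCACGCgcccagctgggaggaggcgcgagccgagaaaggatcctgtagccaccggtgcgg
Pkm: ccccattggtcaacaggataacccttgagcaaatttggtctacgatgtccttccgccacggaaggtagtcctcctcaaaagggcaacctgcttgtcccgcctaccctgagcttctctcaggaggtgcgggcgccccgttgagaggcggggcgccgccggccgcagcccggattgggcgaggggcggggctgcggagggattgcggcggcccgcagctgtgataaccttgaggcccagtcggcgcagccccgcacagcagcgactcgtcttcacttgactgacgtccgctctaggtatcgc

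Levels of the 32 genes spanned more than 3 orders of magnitude on the TPM scale. The highest means over the 12 tumors belonged to *Ldha* (1519 TPM), *Aldoa* (1439 TPM), *Tpi1* (1148 TPM), *Bsg* (1102 TPM) and *Pkm* (986 TPM), all above the 99th percentile of the genes tested. *Pgk1* (438 TPM), *Gpi1* (401 TPM), *Eno1* (269.8 TPM) and *Gapdh* (39.5 to 1232 TPM over the tumors) came next. The lowest were *Hk3* (0.324 TPM), *Pgam2* (1.23 TPM), *Eno2* (1.53 TPM) and *Pfkfb1* (3.3 TPM). At the entry of the pathway, *Hk2* (77.7 TPM) and *Hk1* (71.2 TPM) had like means, and the range of *Hk2* over the tumors (52.3 to 100.5 TPM) lay within that of *Hk1* (24.3 to 131 TPM). Steps served by 1 predominant isozyme were aldolase, phosphoglycerate mutase, pyruvate kinase and enolase, where *Aldoa*, *Pgam1*, *Pkm* and *Eno1* held at least 98.47%, 94.04%, 94.95% and 77% of the TPM of their step in every tumor. The median within-group SD of the 32 genes was 0.44 on the log2 scale, against 0.37 for all genes tested, so they were not more uniform between tumors than other genes.

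**Figure D1:**
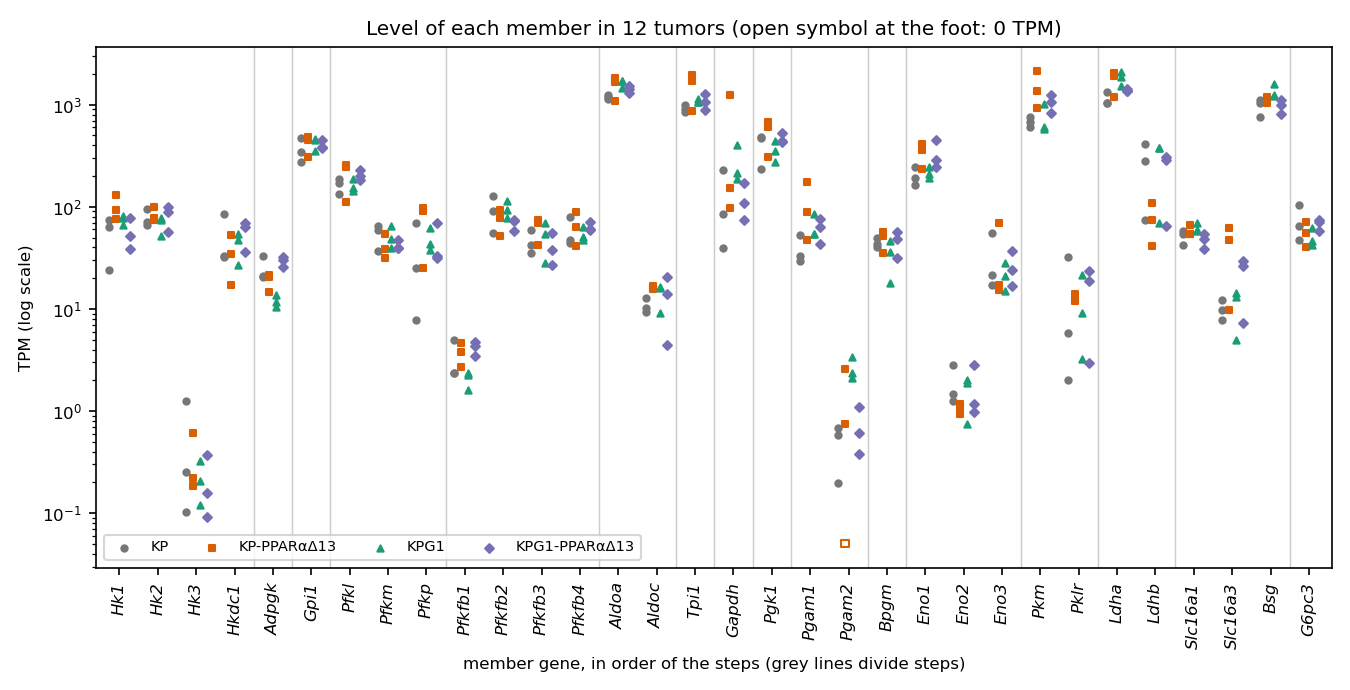
TPM of each of the 32 genes in each tumor on a log axis, with genes in the order of the steps and symbols and colors for the 4 groups. Ldha, Aldoa, Tpi1, Bsg and Pkm lie highest, and Gapdh shows the tumor of KP-PPARαΔ13 that stands apart at 1232 TPM.

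At the first step, hexokinases trap glucose by phosphorylation. Identifiers and positions are those of GENCODE M21 on GRCm38. *Hk1* (ENSMUSG00000037012, chr10:62268855-62379908, minus strand), the broadly expressed isozyme, had 119, 34.4 and 106 CPM in KP, 205, 121 and 159 in KP-PPARαΔ13, 107, 145 and 134 in KPG1 and 80.6, 59.6 and 125 in KPG1-PPARαΔ13. Every KP-PPARαΔ13 tumor was above every KP tumor, whereas the values of KPG1-PPARαΔ13 overlapped those of KPG1. *Hk2*, the insulin- and hypoxia-responsive isozyme, had 164, 194 and 156 CPM in KP, 175, 227 and 182 in KP-PPARαΔ13, 169.7, 209.7 and 124 in KPG1 and 127, 218 and 204 in KPG1-PPARαΔ13, with overlap between all groups. *Hkdc1*, a hexokinase domain protein, ranged from 24.8 to 126 CPM and *Hk3*, a form of myeloid cells, from 0.121 to 1.68 CPM, both with overlap in every comparison of 2 groups. *Adpgk* (ENSMUSG00000025236, chr9:59291558-59324052, plus strand), which phosphorylates glucose with ADP, had 21.5, 30 and 22.1 CPM in KP, 21, 21.9 and 16.2 in KP-PPARαΔ13, 14.4, 12.6 and 12.6 in KPG1 and 32.8, 29.6 and 26.6 in KPG1-PPARαΔ13. The 3 KPG1 tumors were the lowest of the 12 and lay close together, and KPG1-PPARαΔ13 did not overlap with KPG1 or with KP-PPARαΔ13. *G6pc3*, the ubiquitous glucose-6-phosphatase that reverses this step, had 30.9, 60.5 and 43.6 CPM in KP, 45.7, 35.9 and 28.5 in KP-PPARαΔ13, 30.8, 32.8 and 41.6 in KPG1 and 37.2, 46.2 and 46.7 in KPG1-PPARαΔ13, with overlapping groups.

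*Gpi1*, the isomerase that forms fructose-6-phosphate, had 329, 504 and 425 CPM in KP, 572, 528 and 400.2 in KP-PPARαΔ13, 540.3, 654 and 441 in KPG1 and 438, 520.5 and 467 in KPG1-PPARαΔ13, with overlap throughout. Phosphofructokinase commits the sugar to glycolysis. Its liver-type subunit *Pfkl*, the main one here, had 291, 234 and 215 CPM in KP, 394, 372 and 186 in KP-PPARαΔ13, 224, 278 and 298 in KPG1 and 302, 270.0 and 357 in KPG1-PPARαΔ13, while the muscle-type *Pfkm* ranged from 37.3 to 80.9 CPM. The platelet-type *Pfkp* ranged from 11.8 CPM in KP tumor 2 to 164 CPM in KP-PPARαΔ13 tumor 1, which is 13.9-fold, and a gap of 3.8-fold separated KP tumor 2 from the other 11. Of the 4 bifunctional enzymes that set the activator fructose-2,6-bisphosphate, *Pfkfb2* was the most expressed, with 237, 90.7 and 172 CPM in KP, 141, 93.8 and 183 in KP-PPARαΔ13, 211, 201 and 146 in KPG1 and 104, 128 and 138 in KPG1-PPARαΔ13. Each KPG1-PPARαΔ13 tumor was below each KPG1 tumor for *Pfkfb2* and above each for *Pfkfb1*, the form known from liver and muscle, which had 1.71, 3.18 and 1.77 CPM in KP, 2.67, 3.29 and 2.11 in KP-PPARαΔ13, 1.16, 1.93 and 1.75 in KPG1 and 3.07, 3.27 and 2.52 in KPG1-PPARαΔ13. *Pfkfb3*, the form with high kinase activity, ranged from 50.7 to 158 CPM and *Pfkfb4* from 58.4 to 139 CPM, without separation of any 2 groups.

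The aldolase *Aldoa* (ENSMUSG00000030695, chr7:126795234-126800751, minus strand) had 748, 634 and 806 CPM in KP, 1034, 1136 and 734 in KP-PPARαΔ13, 1088, 1250 and 941 in KPG1 and 927, 854 and 825 in KPG1-PPARαΔ13. All KPG1 tumors were above all KP tumors and above all KPG1-PPARαΔ13 tumors. Its minor isozyme *Aldoc* ranged from 5.01 to 22.6 CPM, and KP-PPARαΔ13 lay above KP without overlap. *Tpi1* (ENSMUSG00000023456, chr6:124810586-124814296, minus strand), which interconverts the triose phosphates, had 609, 588 and 578 CPM in KP, 1122, 1291 and 619 in KP-PPARαΔ13, 710.4, 903 and 733 in KPG1 and 583, 818 and 717 in KPG1-PPARαΔ13, with KP-PPARαΔ13 tumors 1 and 2 well above the rest and tumor 3 just above the highest KP tumor. *Gapdh* (ENSMUSG00000057666, chr6:125161715-125166467, minus strand), which yields NADH, had 23.4, 119.9 and 52.3 CPM in KP, 712, 89.8 and 62 in KP-PPARαΔ13, 129, 280.4 and 114 in KPG1 and 99.7, 61.2 and 43.7 in KPG1-PPARαΔ13. KP-PPARαΔ13 tumor 1 stood alone at the top and the remaining tumors of its group lay within the range of KP. *Pgk1*, the first ATP-yielding kinase, had 179.8, 322 and 369.5 CPM in KP, 454, 508 and 251 in KP-PPARαΔ13, 339, 317 and 214 in KPG1 and 329, 310.4 and 405 in KPG1-PPARαΔ13, with overlap throughout.

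Phosphoglycerate mutase moves the phosphate from carbon 3 to carbon 2. The *Pgam1* gene (ENSMUSG00000011752, chr19:41911923-41918660, plus strand), its brain-type and generally expressed form, had 21.6, 21.8 and 40.7 CPM in KP, 126, 65.1 and 37.9 in KP-PPARαΔ13, 40, 73.2 and 41.2 in KPG1 and 31.1, 54 and 47.1 in KPG1-PPARαΔ13. KP-PPARαΔ13 tumors 1 and 2 were above every KP tumor, and tumor 3 was below the highest of them. *Pgam2*, the muscle form, was near the floor of detection, with 0.24, 0.0606 and 0.209 CPM in KP, 0, 0.258 and 0.971 in KP-PPARαΔ13, 1.2, 0.964 and 0.76 in KPG1 and 0.375, 0.128 and 0.215 in KPG1-PPARαΔ13. All KPG1 tumors were above all KP and all KPG1-PPARαΔ13 tumors for *Pgam2*, at 23 to 30 reads per tumor, against 0 to 29 reads in the other 9. *Pgam2* passed the filter on low counts only through the KPG1 tumors. Its separation and p-values in comparisons that include KPG1 are therefore no evidence of a difference. *Bpgm*, which diverts the intermediate to 2,3-bisphosphoglycerate, had 37.7, 40.8 and 41.1 CPM in KP, 51.5, 47.1 and 34.6 in KP-PPARαΔ13, 33.5, 19.7 and 44.1 in KPG1 and 51, 43.2 and 29.2 in KPG1-PPARαΔ13, with overlap.

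*Eno1* (ENSMUSG00000063524, chr4:150236721-150248879, plus strand), the enolase of most tissues, had 139.5, 144 and 211 CPM in KP, 343, 299 and 214 in KP-PPARαΔ13, 179, 242 and 166 in KPG1 and 236, 363 and 206 in KPG1-PPARαΔ13. The 3 KP-PPARαΔ13 tumors were above the 3 KP tumors by a narrow margin at their closest (214 against 211 CPM). The neuronal form *Eno2* (0.892 to 3.14 CPM) and the muscle form *Eno3* (9.91 to 44.0 CPM) overlapped between groups. *Pkm* (ENSMUSG00000032294, chr9:59656368-59679375, plus strand), the pyruvate kinase of most tissues and of tumors, had 684, 537 and 797 CPM in KP, 2134, 1358 and 1012 in KP-PPARαΔ13, 612, 1205 and 606 in KPG1 and 829, 1018 and 1276 in KPG1-PPARαΔ13. Each KP-PPARαΔ13 tumor exceeded each KP tumor, and KPG1 tumors 1 and 3 were at the level of KP. Read counts per gene do not separate its splice forms M1 and M2. *Pklr*, the liver and red cell kinase, ranged from 2.43 to 34.1 CPM with no separation of groups.

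Lactate dehydrogenase A (*Ldha*, ENSMUSG00000063229, chr7:46841475-46855627, plus strand), whose subunit favors the formation of lactate, had 760.4, 673 and 1002 CPM in KP, 1480, 1382 and 943 in KP-PPARαΔ13, 1390, 1817 and 1154 in KPG1 and 1023, 964 and 1017 in KPG1-PPARαΔ13. KPG1 tumors were above KP and above KPG1-PPARαΔ13 tumors without overlap, and KPG1-PPARαΔ13 tumors lay within 964 to 1023 CPM. *Ldhb* (ENSMUSG00000030246, chr6:142490249-142507957, minus strand), whose subunit favors the use of lactate, had 223, 35.7 and 156 CPM in KP, 57.2, 39.5 and 23.8 in KP-PPARαΔ13, 205, 44.2 and 212 in KPG1 and 162, 150.2 and 35.2 in KPG1-PPARαΔ13. It was at 23.8 to 57.2 CPM in all 3 KP-PPARαΔ13 tumors, but KP tumor 2 (35.7 CPM), KPG1 tumor 2 (44.2 CPM) and KPG1-PPARαΔ13 tumor 3 (35.2 CPM) were as low, and no tumor lay between 57.2 and 150.2 CPM. For export, the transporter MCT1 (*Slc16a1*, ENSMUSG00000032902, chr3:104638668-104658462, plus strand) had 106, 89.2 and 80.5 CPM in KP, 98.6, 119.9 and 108 in KP-PPARαΔ13, 128, 128 and 109 in KPG1 and 69.7, 94.5 and 90 in KPG1-PPARαΔ13. KPG1 was above and KPG1-PPARαΔ13 below each other group it was compared with, without overlap. MCT4 (*Slc16a3*, ENSMUSG00000025161, chr11:120948480-120960868, plus strand), a low-affinity exporter induced by hypoxia, had 17.8, 19.7 and 14.6 CPM in KP, 83.9, 111 and 18.8 in KP-PPARαΔ13, 8.96, 30.6 and 24.6 in KPG1 and 12.8, 51.1 and 47.3 in KPG1-PPARαΔ13. Its KP tumors were uniform and KP-PPARαΔ13 tumors 1 and 2 were severalfold higher, with tumor 3 inside the KP range. *Bsg* (ENSMUSG00000023175, chr10:79704491-79711969, plus strand), the chaperone basigin that brings both transporters to the membrane, had 707, 422 and 682 CPM in KP, 704, 648 and 820.5 in KP-PPARαΔ13, 1023, 909 and 808 in KPG1 and 502, 603 and 704 in KPG1-PPARαΔ13, with KPG1 above KP and above KPG1-PPARαΔ13.

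**Figure D2:**
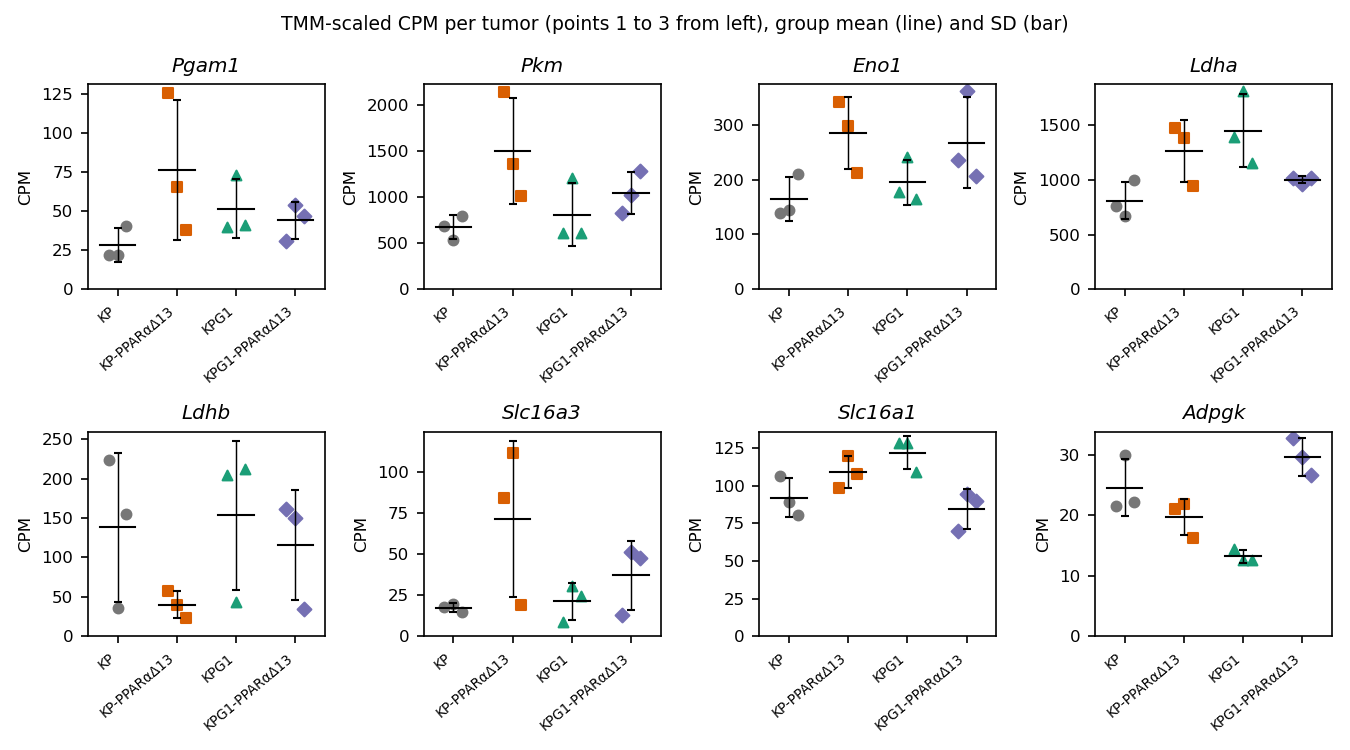
TMM-scaled CPM of 8 genes in the 3 tumors of each group (points, tumors 1 to 3 from left), with the group mean (line) and SD (bar) on linear axes from 0. Slc16a3 is high in 2 of 3 KP-PPARαΔ13 tumors (83.9 and 111 CPM), and Adpgk separates KPG1 (12.6 to 14.4 CPM) from KPG1-PPARαΔ13 (26.6 to 32.8 CPM).

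The effect of doxycycline in tumors with wild-type *Slc2a1* was addressed by KP-PPARαΔ13 against KP. Pyruvate kinase (*Pkm*), mutase (*Pgam1*), triose phosphate isomerase (*Tpi1*), enolase (*Eno1*) and the lactate exporter MCT4 had higher means with doxycycline and *Ldhb* a lower one, but no gene of the pathway passed the test across all genes. In all, 24 of the 32 genes had a higher mean and 8 a lower one (49.2% of all genes tested were higher), with a median log2 fold change of 0.27 against -0.008 for all genes. None of the 32 passed an adjusted p of 0.05 by edgeR's quasi-likelihood test (0.00605% of all genes did), by DESeq2 (2.31% of all genes) or by limma voom. At an unadjusted p of 0.05, 7 of 32 were higher (5.32% of all genes) and 1 was lower (6.03%). In 5 of 32 the KP-PPARαΔ13 tumors lay above the KP tumors without overlap (6.55% of all genes), namely *Hk1*, *Aldoc*, *Tpi1*, *Eno1* and *Pkm*, and in none below (6.7%).

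Among these 8 genes, enzymes of the later steps and MCT4 were on the high side and *Ldhb* on the low side. The log2 fold changes, with standard errors of edgeR's fit on 3 tumors a group, were 2.14 ± 0.88 (adjusted p = 0.403) for *Gapdh*, 2.04 ± 0.67 (adjusted p = 0.329) for *Slc16a3* and 1.44 ± 0.44 (adjusted p = 0.324) for *Pgam1*. *Pkm* had 1.16 ± 0.35 (adjusted p = 0.323), *Eno1* had 0.79 ± 0.28 (adjusted p = 0.351), and *Tpi1* had 0.77 ± 0.27 (adjusted p = 0.339). *Ldha*, whose tumors overlapped, had 0.64 ± 0.26 (adjusted p = 0.392). For *Ldhb* the value was -1.78 ± 0.76 (adjusted p = 0.409). *Hk1*, without overlap of the tumors, had 0.91 ± 0.41 (adjusted p = 0.442). The *Gapdh* value rested on KP-PPARαΔ13 tumor 1, since without this tumor it was 0.22 (adjusted p = 0.942), and that of *Pgam1* was then 0.88 (adjusted p = 0.575). Without KP-PPARαΔ13 tumor 1, the one with low *Ppara*, 23 of 32 genes still had a higher mean and 5 passed the unadjusted p. Shares of all genes are not given, here or below, for fits that leave out a tumor or change a setting, apart from DESeq2 calls. Counts from such fits therefore cannot be set against all genes.

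Marker sums of other cell types also differed in this comparison, and those of hypoxia targets overlapped. Of 13 tested hypoxia targets that are not glycolytic, 9 had a higher mean (median log2 fold change 0.49) and 1 was higher at an unadjusted p of 0.05, with summed levels of 1558 to 2224 CPM in KP and 1823 to 2592 CPM in KP-PPARαΔ13. The 6 fibroblast markers had a median log2 fold change of 1.17 (3 of 6 at an unadjusted p of 0.05, summed 113 to 241 CPM in KP and 266 to 529 CPM in KP-PPARαΔ13). Erythroid markers, 6 of them tested, had a median of 1.41 (4 of 6 at an unadjusted p of 0.05, summed 319 to 765 CPM in KP and 851 to 1320 CPM in KP-PPARαΔ13), and no marker of either list was at 0 in every tumor. Their part in the values of the 32 genes was not tested.

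With floxed *Slc2a1*, in KPG1-PPARαΔ13 against KPG1, *Ldha*, *Aldoa*, MCT1 and basigin had lower means with doxycycline and *Adpgk* a higher one. In all, 14 of the 32 genes had a higher and 18 a lower mean (52.2% of all genes were higher), with a median log2 fold change of -0.17 against 0.023 for all genes. The tumors of KPG1-PPARαΔ13 lay below those of KPG1 without overlap for 7 of 32 genes (9.41% of all genes). These were *Pfkfb2*, *Slc16a1*, *Gapdh*, *Ldha*, *Aldoa*, *Bsg* and *Pgam2*, the last of which passed the filter on low counts only through KPG1. For *Gapdh* the groups overlapped once counts of its copies elsewhere in the genome were added (146 to 184 against 180.3 to 377 CPM). KPG1-PPARαΔ13 lay above KPG1 without overlap for *Adpgk* and *Pfkfb1*, 2 of 32 (11.2% of all genes). None of the 32 passed an adjusted p of 0.05 by edgeR (0.00605% of all genes) or limma voom, and DESeq2 called *Adpgk* (1.39% of all genes were called). At an unadjusted p of 0.05, 2 of 32 were higher (6.25% of all genes) and 2 were lower (4.5%). These 4 became 1 without KPG1-PPARαΔ13 tumor 1 and 2 without its tumor 2.

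For *Adpgk* the mean was 13.2 ± 1.02 CPM (SD, n = 3) in KPG1 and 29.6 ± 3.09 CPM (SD, n = 3) in KPG1-PPARαΔ13. This gave a log2 fold change of 1.17 ± 0.21 (adjusted p = 0.386) by edgeR and an adjusted p of 0.000157 by DESeq2. Its value was 1.09 to 1.24 over the 22 alternatives, while its adjusted p ran from 0.000157 to 0.999. By the numbers in the descriptions each of the 2 groups came from only 2 mice. KPG1 tumors were all from males and 2 of the 3 KPG1-PPARαΔ13 tumors from females. *Pfkfb1* had 0.87 ± 0.39 (adjusted p = 0.457). The genes of lactate export had lower means, with -0.52 ± 0.18 (adjusted p = 0.42) for *Slc16a1* and -0.60 ± 0.24 (adjusted p = 0.428) for *Bsg*. *Ldha* had -0.54 ± 0.26 (adjusted p = 0.48) and *Aldoa* -0.33 ± 0.22 (adjusted p = 0.609). *Slc16a3* and *Pkm*, on the high side in KP-PPARαΔ13, had 0.79 ± 0.65 (adjusted p = 0.686) and 0.37 ± 0.35 (adjusted p = 0.725) here. All 7 alveolar type 2 markers also had lower means in KPG1-PPARαΔ13 (median log2 fold change -0.87), with summed levels of 23840 to 35580 CPM against 40610 to 67480 CPM in KPG1, and their part in these values was not tested.

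**Figure D3:**
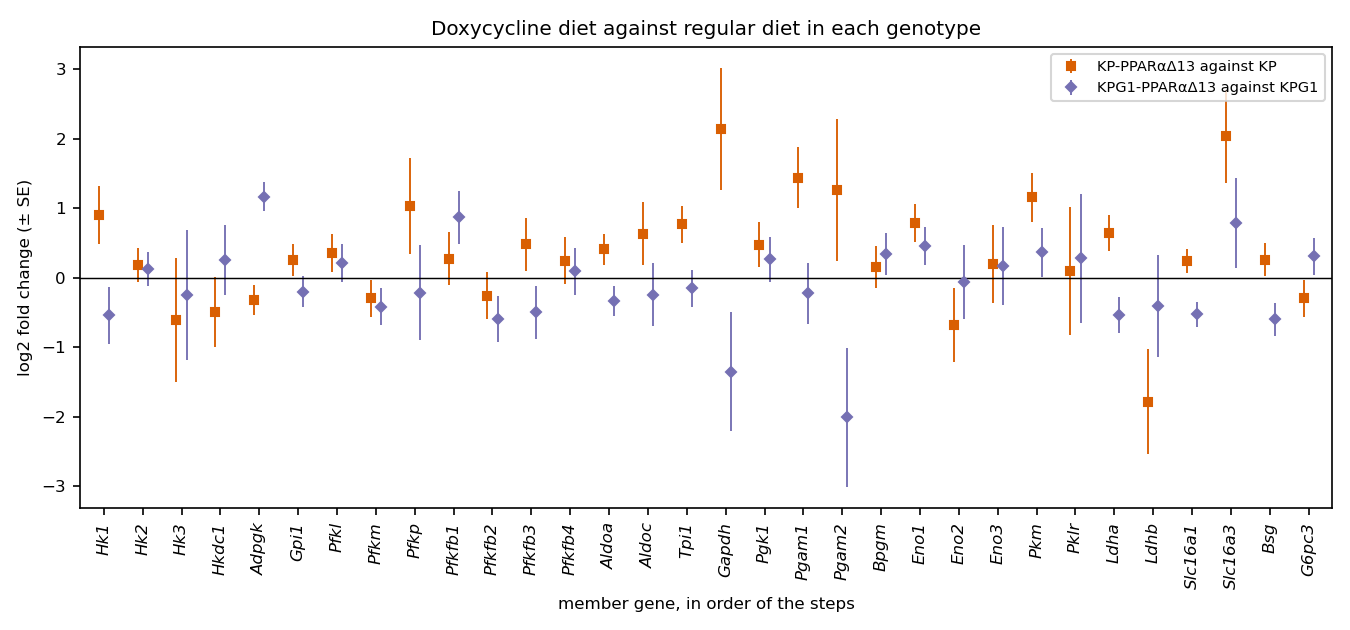
Log2 fold change (± SE of edgeR's fit) of each of the 32 genes on the doxycycline diet against the regular diet, for KP (squares) and KPG1 (diamonds). In KP, Gapdh (2.14), Slc16a3 (2.04), Pgam1 (1.44) and Pkm (1.16) lie among the highest, and in KPG1 the highest is Adpgk (1.17).

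The difference between the 2 doxycycline effects was tested as an interaction. It was negative, that is lower in KPG1 than in KP, for 23 of 32 genes and positive for 9 (51.7% of all genes were positive), with a median of -0.33 against 0.028 for all genes. No gene passed an adjusted p of 0.05 by edgeR (0% of all genes tested) and none of the 32 by limma voom, while DESeq2 called *Adpgk* (1.74% of all genes were called, *Adpgk* at an adjusted p of 0.00075). At an unadjusted p of 0.05, 9 of 32 were negative (4.94% of all genes) and 1 was positive (6.87%). The positive gene was *Adpgk*, with a difference of 1.49 ± 0.30 (adjusted p = 0.33). The negative ones ran from the first step to export, with -1.45 ± 0.58 (adjusted p = 0.395) for *Hk1*, -0.74 ± 0.31 (adjusted p = 0.404) for *Aldoa*, -0.92 ± 0.38 (adjusted p = 0.399) for *Tpi1* and -3.50 ± 1.23 (adjusted p = 0.359) for *Gapdh*. *Pgam1* had -1.67 ± 0.62 (adjusted p = 0.375) and *Pgam2*, which passed the filter on low counts only through KPG1, -3.27 ± 1.43 (adjusted p = 0.411). For lactate formation and export, *Ldha* had -1.18 ± 0.36 (adjusted p = 0.348), *Slc16a1* -0.77 ± 0.25 (adjusted p = 0.351) and *Bsg* -0.86 ± 0.34 (adjusted p = 0.389). With sex as a covariate the number of genes at an unadjusted p of 0.05 was 3 in place of 10, and it was 5 without KP-PPARαΔ13 tumor 1 and 5 without KPG1 tumor 2. Without the former the *Gapdh* difference was -1.58 and that of *Pgam1* -1.1, and without KP-PPARαΔ13 tumor 3 that of *Pgam2* was -1.66.

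Floxed *Slc2a1* on the regular diet, KPG1 against KP, shares its samples with both comparisons above, and its directions cannot be read as independent of them. Genotype and sex, which coincide here, cannot be told apart within these 6 tumors. *Ldha*, *Aldoa*, MCT1 and basigin had higher means in KPG1 and *Adpgk* a lower one. Of the 32 genes, 22 had a higher and 10 a lower mean (46.9% of all genes were higher), with a median log2 fold change of 0.20 against -0.029 for all genes. At an unadjusted p of 0.05, 5 were higher (2.42% of all genes) and 1 was lower (3.81%), 6 in all, which became 3 without any 1 of KP tumor 2, KPG1 tumor 1 and KPG1 tumor 2, and 1 after summing tumors that share a mouse number. Groups did not overlap for 6 higher genes (4.82% of all genes), which were *Tpi1*, *Slc16a1*, *Ldha*, *Aldoa*, *Bsg* and *Pgam2*, and for 1 lower gene (5.13%), *Adpgk*. None passed an adjusted p of 0.05 by edgeR (0.0363% of all genes) or limma voom, and DESeq2 called *Adpgk* (0.396% of all genes were called) at an adjusted p of 0.0207. The 4 club cell markers summed to 61.4 to 127 CPM in KP and 142 to 377 CPM in KPG1, without overlap (2 of 4 with a higher mean, 0 of 4 at an unadjusted p of 0.05, none at 0 in every tumor), and their part in these values was not tested.

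The edgeR log2 fold changes of KPG1 against KP were 0.84 ± 0.26 (adjusted p = 0.785) for *Ldha*, 0.58 ± 0.22 (adjusted p = 0.785) for *Aldoa*, 0.60 ± 0.24 (adjusted p = 0.786) for *Bsg* (0.40 without KP tumor 2) and 0.40 ± 0.18 (adjusted p = 0.786) for *Slc16a1*. *Pgam2*, at under 1.3 CPM in every tumor, had 2.50 ± 1.03 (adjusted p = 0.786). *Adpgk* had -0.90 ± 0.21 (adjusted p = 0.785), from 24.6 ± 4.73 CPM (SD, n = 3) in KP to 13.2 ± 1.02 CPM in KPG1 (SD, n = 3).

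On the doxycycline diet, KPG1-PPARαΔ13 had a lower mean than KP-PPARαΔ13 for 25 of 32 genes and a higher one for 7 (50.5% of all genes were higher), with a median log2 fold change of -0.20 against 0.005. Single genes were rarely apart: at an unadjusted p of 0.05, 1 was lower (4.44% of all genes), which was *Gapdh* with -2.08 ± 0.88 (adjusted p = 0.502), and 1 was higher (5.25%), which was *Adpgk* with 0.59 ± 0.21 (adjusted p = 0.484). Groups did not overlap for 1 higher gene, *Adpgk* (10.3% of all genes), and 1 lower gene, *Slc16a1* (7.25%), which had -0.36 ± 0.18 (adjusted p = 0.531). None of the 32 passed an adjusted p of 0.05 by edgeR (0.0303% of all genes), DESeq2 (0.962%) or limma voom. This balance depended on KP-PPARαΔ13 tumor 1, without which 13 genes in place of 7 had a higher mean and the *Gapdh* value was -0.16. The number at an unadjusted p of 0.05 was 4 without KP tumor 2 and 4 without KP-PPARαΔ13 tumor 3. It was 1 without KP-PPARαΔ13 tumor 1 or KPG1-PPARαΔ13 tumor 1. KP tumor 2 is in neither group and enters through the shared filter, scaling and estimate of spread. All 6 fibroblast markers had lower means in KPG1-PPARαΔ13 (median log2 fold change -1.25, 2 of 6 at an unadjusted p of 0.05), with sums of 127 to 183 CPM against 266 to 529 CPM in KP-PPARαΔ13, and their part in these values was not tested.

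Averaged over both genotypes, doxycycline went with a higher mean for 22 of 32 genes and a lower one for 10 (51.1% of all genes were higher), with a median log2 fold change of 0.18. At an unadjusted p of 0.05, 4 were higher (5.14% of all genes) and 0 lower (4.91%), and none passed an adjusted p of 0.05 by edgeR (0.0182% of all genes), DESeq2 (1.79%) or limma voom. These 4 were *Slc16a3* with 1.42 ± 0.46 (adjusted p = 0.357), *Pkm* with 0.76 ± 0.25 (adjusted p = 0.357), *Eno1* with 0.62 ± 0.20 (adjusted p = 0.344) and *Adpgk* with 0.42 ± 0.15 (adjusted p = 0.384). The 4 became 10 without KP-PPARαΔ13 tumor 3 and 7 without KP tumor 2, and the share of all genes in these fits is not given. *Eno1*, *Pkm* and *Slc16a3* had a higher mean with doxycycline in each genotype. For none of the 32 were the 6 tumors on doxycycline apart from the 6 on the regular diet (0.266% of all genes were above and 0.224% below without overlap). Averaged over both diets, floxed *Slc2a1* went with 15 higher and 17 lower means (47.8% of all genes were higher), a median of -0.01, and no gene of the 32 at an unadjusted p of 0.05 (2.15% of all genes higher, 2.37% lower) or at an adjusted p of 0.05 by edgeR (0.0484%), DESeq2 (0.237%) or limma voom. Nor were the groups by genotype apart for any of the 32 (0.0968% of all genes were above and 0.0908% below without overlap).

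Isozyme use was expressed as the share of 1 gene in the summed TPM of its step, for 9 steps. Exact permutation tests (two-sided) compared groups of 3 tumors, where p cannot go below 0.1, and averaged effects within the other factor, where it cannot go below 0.005. Over the 114 tests of 19 genes in 6 comparisons the smallest adjusted p was 0.76, so no share passed an adjusted p of 0.05. Tests of 3 tumors against 3 could not pass it whatever the values, and averaged ones only if many reached their floor together. That none passed therefore says little about isozyme use. The hexokinase share of *Hk1* was 31.8, 15.9 and 39.4% in KP, 50, 39.4 and 45.9 in KP-PPARαΔ13, 39.7, 38 and 43 in KPG1 and 30.1, 22.3 and 32.9 in KPG1-PPARαΔ13. It was 16.1 percentage points higher in KP-PPARαΔ13 than in KP (exact p = 0.1), although KP tumor 3 and KP-PPARαΔ13 tumor 2 were equal at the digits given and the difference was 9.49 without KP tumor 2. KPG1-PPARαΔ13 differed from KPG1 by -11.8 percentage points, without overlap (exact p = 0.1). *Hkdc1* took 13.6 percentage points more of the step in KPG1-PPARαΔ13 than in KP-PPARαΔ13, also without overlap (exact p = 0.1). *Pfkl* held 58.5% to 75.9% of phosphofructokinase TPM in every tumor, and the share of *Pfkm* differed by -5.92 percentage points with doxycycline when averaged over genotypes (exact p = 0.045).

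At the end of the pathway, the share of *Ldhb* in lactate dehydrogenase was 28.4, 6.71 and 17.4% in KP, 4.98, 3.73 and 3.31 in KP-PPARαΔ13, 16.6, 3.19 and 19.9 in KPG1 and 17.6, 17.4 and 4.48 in KPG1-PPARαΔ13. KP-PPARαΔ13 tumors were below KP tumors without overlap, with a difference of means of -13.5 percentage points (exact p = 0.1, and -8.04 without KP tumor 1), while KPG1-PPARαΔ13 overlapped with KPG1. The share of *Slc16a3* among the 2 transporters was 14.6, 18.4 and 15.6% in KP, 46.5, 48.6 and 15.1 in KP-PPARαΔ13, 6.67, 19.6 and 18.7 in KPG1 and 15.7, 35.6 and 34.9 in KPG1-PPARαΔ13. MCT4 thus reached 46.5% and 48.6% in KP-PPARαΔ13 tumors 1 and 2 and 35.6% and 34.9% in KPG1-PPARαΔ13 tumors 2 and 3, against at most 19.6% in the remaining 8 tumors, and the averaged doxycycline difference was 17.1 percentage points (exact p = 0.055). Among the fructose-2,6-bisphosphate enzymes the share of *Pfkfb2* differed by -9.00 percentage points with doxycycline (exact p = 0.045), and that of *Eno2* in enolase by -0.329 percentage points (exact p = 0.03).

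**Figure D4:**
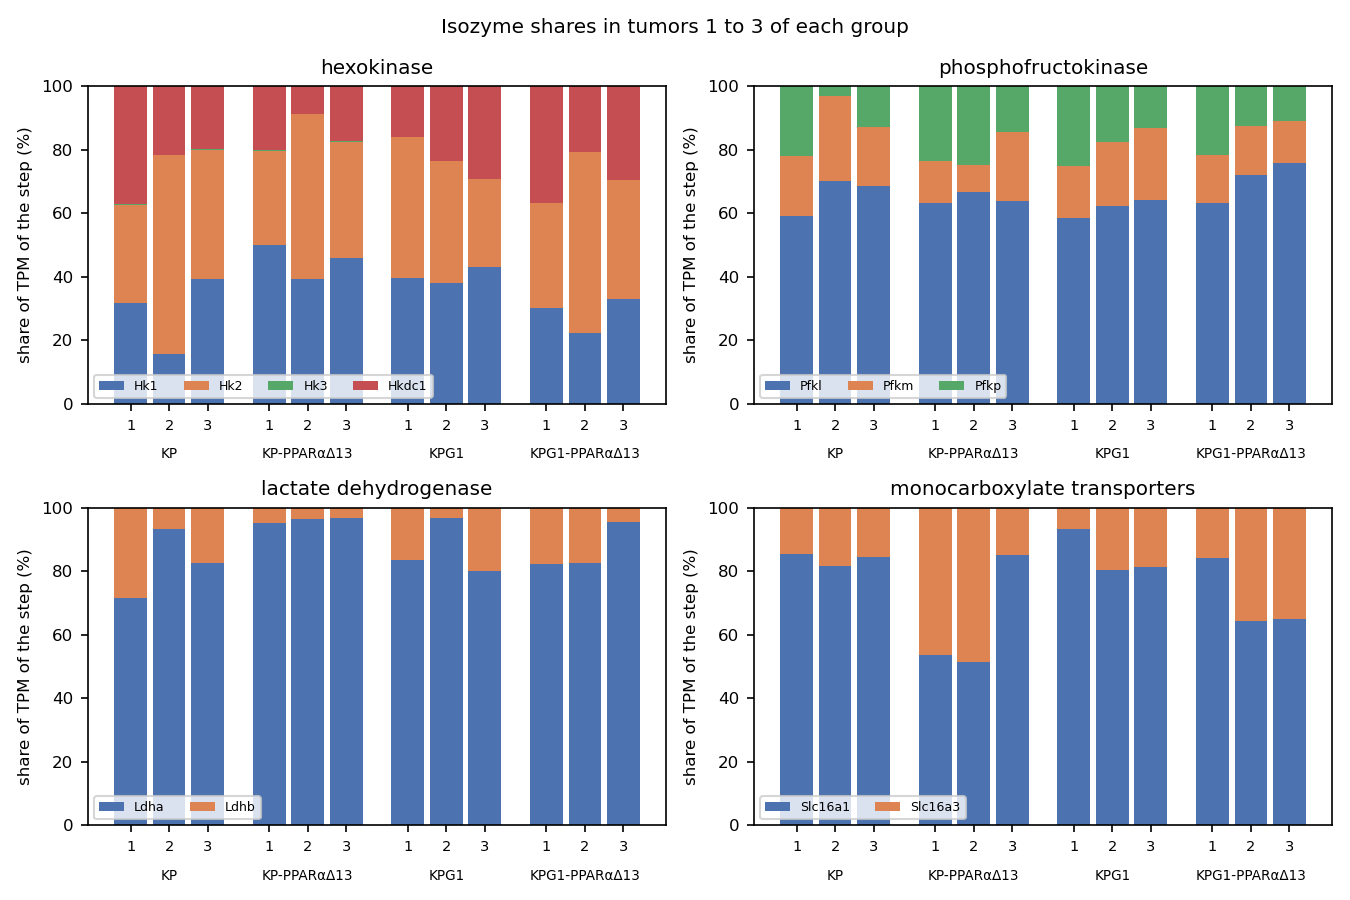
Stacked bars of the percent of TPM that each isozyme holds within 4 steps, for tumors 1 to 3 of each group. Ldhb takes 3.31% to 4.98% of lactate dehydrogenase in KP-PPARαΔ13, and Slc16a3 exceeds 30% of the 2 transporters in 4 of the 6 tumors on doxycycline.

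Several of these genes have processed copies elsewhere in the genome, which bears on how their reads can be assigned. Of the 85-base windows of the principal transcript, 85 being the read length, 79.4% of those of *Gapdh* occurred also in transcripts of other genes, 103 of them, and the share was 67.3% for *Pgk1*, 62.7% for *Eno1* and 40.3% for *Pgam1*. It was 3.2% for *Ldha*, 14.8% for *Pkm* and 0 for *Hk1*, *Hk2*, *Adpgk*, *Slc16a1*, *Slc16a3* and *Bsg* among others. How reads that align to several places were counted is not given in the sources used here, so the levels of *Gapdh*, *Pgk1*, *Eno1* and *Pgam1* are uncertain. *Pfkp*, *Pklr* and *Gpi1* share windows with the overlapping genes *Pitrm1* (16.4%), *Hcn3* (22.2%) and *Gm26762* (3.9%).

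*Gapdh* together with its 92 copies in the table had 137, 154 and 172 CPM in KP, 786, 289 and 109.6 in KP-PPARαΔ13, 180.3, 377 and 192 in KPG1 and 171, 184 and 146 in KPG1-PPARαΔ13. The log2 fold change of KP-PPARαΔ13 against KP was then 1.36 (adjusted p = 0.398) in place of 2.14, and the range between tumors was much narrower than for *Gapdh* alone, with KP-PPARαΔ13 tumor 1 still at the top. The copy that mattered most, *Gm12033* (chr11:20335012-20336013, minus strand, processed pseudogene), had 74.8, 0.0606 and 77.7 CPM in KP, 0.0685, 123 and 2.11 in KP-PPARαΔ13, 0.2, 44.9 and 26.7 in KPG1 and 0.205, 74 and 54.5 in KPG1-PPARαΔ13. *Eno1* with its copies had 146, 217 and 219 CPM in KP, 358, 314 and 219.9 in KP-PPARαΔ13, 258, 251 and 175 in KPG1 and 244, 439 and 217 in KPG1-PPARαΔ13, and the doxycycline effect in KP was 0.62 (adjusted p = 0.482) in place of 0.79. *Pgam1* with its copies kept a value of 1.43 (adjusted p = 0.322).

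**Figure D5:**
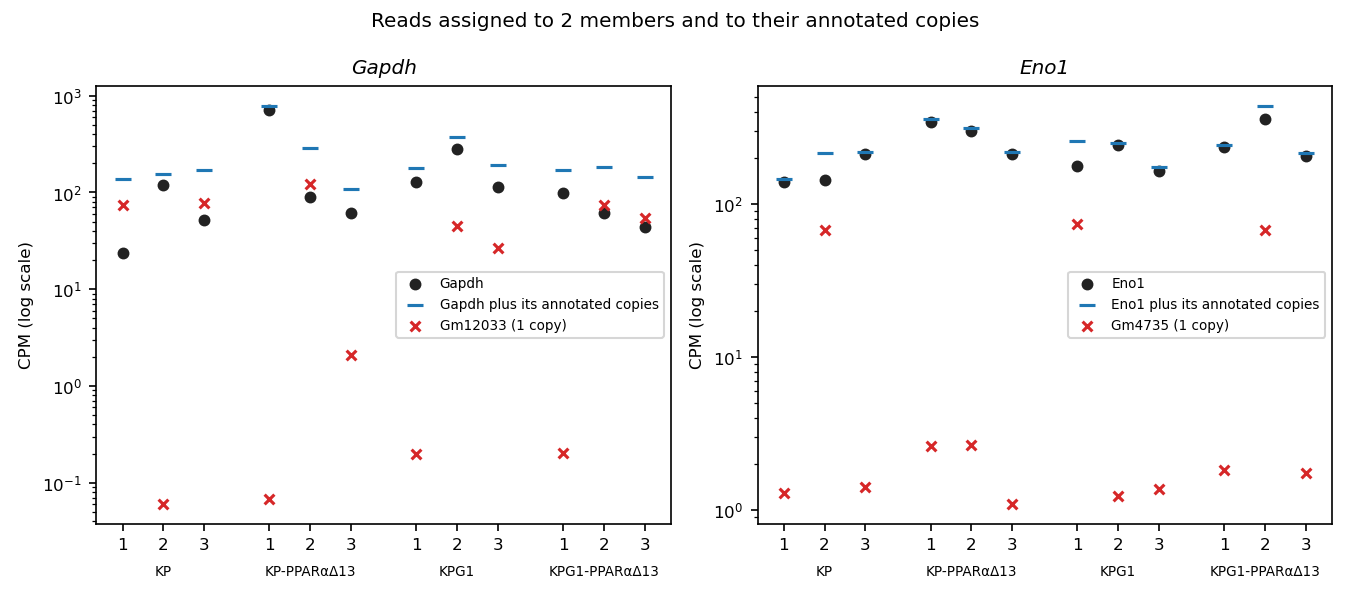
CPM of Gapdh and Eno1 (circles), of each with its annotated copies added (bars) and of 1 processed pseudogene (crosses) in the 12 tumors, on log axes. Gm12033 ranges from 0.0606 to 123 CPM and Gm4735 is near 70 CPM in 3 tumors and under 3 CPM in the other 9.

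Of 43 further genes of glucose entry, pyruvate use and their control, 42 were found and 34 tested. In KP-PPARαΔ13 against KP, 3 of 34 were higher at an unadjusted p of 0.05 (5.32% of all genes) and 4 lower (6.03%), with none past an adjusted p of 0.05 by edgeR (0.00605%) and 3 by DESeq2 (2.31%). *Slc2a1* was among the higher ones, with 108 to 152 CPM against 35.3 to 57.7 CPM and a log2 fold change of 1.48 ± 0.36 (adjusted p = 0.289). The others were *Pdha1*, a subunit of pyruvate dehydrogenase, with 0.83 ± 0.23 (adjusted p = 0.305), and *Pgm1* with 1.03 ± 0.29 (adjusted p = 0.305). The lower ones were *Mlxipl*, the glucose-sensing factor ChREBP, with -4.04 ± 0.88 (adjusted p = 0.256), *Emb*, which is the ancillary protein of MCT2, with -2.07 ± 0.67 (adjusted p = 0.327), *Pdk2*, an inhibitory kinase of pyruvate dehydrogenase, with -0.77 ± 0.30 (adjusted p = 0.379), and *Mpc2*, a subunit of the mitochondrial pyruvate carrier, with -0.54 ± 0.22 (adjusted p = 0.394). *Mlxipl* had 1.88, 18.7 and 2.54 CPM in KP, 0.411, 0.484 and 0.502 in KP-PPARαΔ13, 2.52, 1.21 and 0.958 in KPG1 and 1.81, 3.07 and 4.37 in KPG1-PPARαΔ13, so that KP tumor 2 carries much of its mean. *Slc2a3*, the gene of the transporter Glut3, ranged from 24.1 to 727 CPM and had -0.68 ± 1.00 (adjusted p = 0.863) in this comparison.

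In KPG1-PPARαΔ13 against KPG1, 2 of these 34 genes were higher at an unadjusted p of 0.05 (6.25% of all genes) and 3 lower (4.5%), with none past an adjusted p of 0.05 by edgeR (0.00605%) and 2 by DESeq2 (1.39%). *Gpd1l*, a glycerol-3-phosphate dehydrogenase, had 0.76 ± 0.17 (adjusted p = 0.42), and *Dlat*, the acetyltransferase of pyruvate dehydrogenase, had 0.40 ± 0.17 (adjusted p = 0.44). *Pcx*, which carboxylates pyruvate, had -1.81 ± 0.59 (adjusted p = 0.42), *Txnip*, which restrains glucose uptake, had -1.39 ± 0.37 (adjusted p = 0.42), and *Gpd1* had -0.75 ± 0.31 (adjusted p = 0.435). *Slc2a1* had -0.03 ± 0.36 (adjusted p = 0.987). The interaction for *Slc2a1* was -1.51 ± 0.50 (adjusted p = 0.351), and that for *Mlxipl* 5.02 ± 1.16 (adjusted p = 0.33), where 2 of 34 were positive (6.87% of all genes) and 2 negative (4.94%) at an unadjusted p of 0.05. In KPG1 against KP, 0 of 34 were higher (2.42% of all genes) and 2 lower (3.81%), and in KPG1-PPARαΔ13 against KP-PPARαΔ13 2 were higher (5.25%) and 3 lower (4.44%), *Slc2a1* among them with -1.51 ± 0.36 (adjusted p = 0.462). None of the 34 passed an adjusted p of 0.05 by edgeR in these 3 comparisons, and DESeq2 called 2 (1.74% of all genes), 0 (0.396%) and 1 (0.962%).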

How the data were processed

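The authors trimmed single-end reads of 85 bases from stranded poly(A) libraries, used HISAT2 for alignment to mm10, and deposited raw counts per gene, per tumor and as 1 table. The submitters' processing notes also name bcl2fastq 2.17, cutadapt 1.4.2, featureCounts 1.4.4 and edgeR. Both forms hold the same counts for all 12 tumors. A deposited table of log2 values was checked only and equals log2 of the count plus 0.5 after 1 shift per tumor. All 37 mitochondrial genes are listed at 0.

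Counts were tested with edgeR 4.0.16 (TMM, filterByExpr by group, glmQLFit, glmQLFTest) under R 4.3.3, with 4 group means over 12 tumors (8 residual degrees of freedom) and Benjamini-Hochberg adjustment over 16527 genes. A standard error is |log2 fold change| over the root of its F statistic. TMM factors were 0.89 to 1.07 and the biological coefficient of variation was 0.44. TPM used the longest APPRIS principal transcript of GENCODE M21, which held 96.4% of the identifiers and 99.75% of the counts. Scripts were tested on simulated counts with known changes in KP-PPARαΔ13 against KP. At an adjusted p of 0.05, edgeR recovered 1.5% of the 2-fold changes, 40.3% of the 4-fold and 68.2% of the 8-fold. An absence of calls thus says little about changes near 2-fold.

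The 32 genes and all lists were chosen with earlier results of these data known. Values of every tumor are given for genes at an unadjusted p under 0.05 in any of the 7 comparisons and for the isozyme with the highest mean TPM of a step. The alternatives were DESeq2 1.42.0, limma 3.58.1 voom, upper-quartile scaling, no filter, a mean of at least 20 TPM, only the groups compared, sex as a covariate, a replicate block, tumors of the same mouse number summed, and each tumor left out. Exon-union lengths and the summing of gene copies were added after seeing the data.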

Additional observations from a re-analysis of the deposited data

How the results depend on the processing

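No value of the 32 genes in a comparison where the unadjusted p was under 0.05 changed sign under the alternatives run. The further genes of glucose entry and pyruvate use were not followed over the alternatives. None of the 32 passed an adjusted p of 0.05 except *Adpgk* with DESeq2, which gave 1 call each in KPG1-PPARαΔ13 against KPG1, KPG1 against KP and the difference of the doxycycline effects. With 3 tumors a group the biological coefficient of variation was 0.44, and some of the 32 genes had few reads, such as *Pgam2* with 0 to 30 per tumor.

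The number of genes at an unadjusted p under 0.05 moved with sex as a covariate, to 5 from 8 (KP-PPARαΔ13 against KP), 2 from 4 (KPG1-PPARαΔ13 against KPG1), 3 from 6 (KPG1 against KP), 1 from 2 (KPG1-PPARαΔ13 against KP-PPARαΔ13) and 3 from 10 (difference). With tumors of the same mouse number summed it was 1 in KPG1-PPARαΔ13 against KPG1, 1 in KPG1 against KP, 6 in the difference and 1 in the averaged genotype effect. It was 7 in KPG1-PPARαΔ13 against KPG1 when only the groups compared were fitted, and in KPG1-PPARαΔ13 against KP-PPARαΔ13 it was 4 with DESeq2, 1 with limma voom and 4 without a filter. The cause of these moves was not tested.

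Leaving out 1 tumor gave 5 to 10 genes in KP-PPARαΔ13 against KP, 1 to 6 in KPG1-PPARαΔ13 against KPG1, 3 to 8 in KPG1 against KP, 1 to 4 in KPG1-PPARαΔ13 against KP-PPARαΔ13, 5 to 11 in the difference, 4 to 10 in the averaged doxycycline effect and 0 to 1 in the averaged genotype effect. The number with a higher mean in KPG1-PPARαΔ13 against KP-PPARαΔ13 was then 7 to 13.

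Values of single genes moved by over 1.5 times for *Gapdh* in KP-PPARαΔ13 against KP (1.33 with sex as a covariate, 1.36 with copies summed, 0.22 without KP-PPARαΔ13 tumor 1), for *Gapdh* in the difference (-1.97, -1.94 and -1.58) and for *Gapdh* in KPG1-PPARαΔ13 against KP-PPARαΔ13 (-1.3 with limma voom, -1.24 with copies summed). The *Pgam2* difference was -2.11 with limma voom and -1.66 without KP-PPARαΔ13 tumor 3, the *Pgam1* difference -1.1 without KP-PPARαΔ13 tumor 1, and *Bsg* in KPG1 against KP 0.40 without KP tumor 2. The higher *Hk1* share in KP-PPARαΔ13 was 9.49 percentage points without KP tumor 2, and the *Ldhb* share difference -8.04 without KP tumor 1.

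The replicate numbers were tested as pairing. Same-numbered tumors had a median correlation of deviations of -0.013 (-0.19 to 0.127, 2 of 18 pairs over 0.1), against -0.014 for other pairs, so they share only a number. With a replicate block, the number of genes at an unadjusted p under 0.05 was 6 in place of 8 in KP-PPARαΔ13 against KP, a count of 4 as before for KPG1-PPARαΔ13 against KPG1, 5 in place of 6 in KPG1 against KP, 2 as before for KPG1-PPARαΔ13 against KP-PPARαΔ13, 8 in place of 10 in the difference, 5 in place of 4 in the averaged doxycycline effect and 0 as before in the averaged genotype effect. The block changed no call at an adjusted p of 0.05.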

Other observations

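The 32 genes did not peak evenly over the tumors. KP-PPARαΔ13 tumor 1 was the highest of the 12 for 8 of the 32 genes (9.8% of all genes tested peaked there) and KP-PPARαΔ13 tumor 2 for 5 (9.8%), while KP-PPARαΔ13 tumor 3 was the highest for 1 (11.4%). Relative to each gene's own mean over the 12 tumors, the median of the 32 genes was 0.26, 0.27 and -0.15 on the log2 scale in KP-PPARαΔ13 tumors 1, 2 and 3, and KPG1 tumor 2 (0.33) and KP tumor 2 (-0.41) were the extremes. The tumor of KP-PPARαΔ13 with the highest *Ppara* count, tumor 3 (246 CPM), was thus the one of its group with the lowest median.

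Spread between tumors that share a mouse number was of the same order as spread between the others of a group. The median absolute log2 difference over the 32 genes was 0.63 between KP tumors 1 and 2, 0.41 between KPG1 tumors 1 and 2 and 0.34 between KPG1-PPARαΔ13 tumors 1 and 3, the pairs that apparently share a mouse, and 0.24 to 0.61 between the other pairs within groups. KP tumors 1 and 2 were over 2-fold apart for 9 of the 32 genes, *Ldhb* among them (223 and 35.7 CPM), and the share of all genes so far apart is not given. This pair was also the furthest apart over all genes tested, with a median of 0.48 against 0.26 to 0.45 in the other pairs. The difference is thus not particular to the 32 genes. For *Ldhb*, 6 tumors lay at 57.2 CPM or below and 6 at 150.2 CPM or above, a gap of 2.62-fold that ran through every group except KP-PPARαΔ13.

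Counts assigned to a few processed pseudogenes were low in most tumors and high in others. The *Eno1* copy *Gm4735* shares 45.5% of the 85-base windows of *Eno1*, and the *Gapdh* copy *Gm12537* shares 62.4% of those of *Gapdh*. Whether the reads came from the copy or from the parent gene was not tested. The *Eno1* copy *Gm4735* (chr2:80837141-80838442, plus strand) had 1.3, 68.1 and 1.43 CPM in KP, 2.64, 2.68 and 1.1 in KP-PPARαΔ13, 74.5, 1.24 and 1.39 in KPG1 and 1.84, 67.6 and 1.75 in KPG1-PPARαΔ13. It was thus high in 1 tumor of each group except KP-PPARαΔ13, and low in the tumor with the same mouse number in KP and KPG1. The *Gapdh* copy *Gm12537* (chr4:57370953-57371954, minus strand) reached 25.2 CPM in KPG1-PPARαΔ13 tumor 1 and was under 1 CPM in the other 11. These were chosen after their values were seen.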
